A study of Bos taurus with 14 samples.

Results

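The genes described here serve the carnitine shuttle of fatty acids and the uptake of carnitine in liver: ACSL1, ACSL5, CPT1A, SLC25A20, CPT2, CRAT, CROT and SLC22A5. They were taken by symbol from the deposited liver table, and they make up 8 of its 17469 genes and 29 of its 49721 transcript rows. The livers came from 14 Holstein bull calves. DCLI calves (n = 7) received 1 g per day of killed cells of Lactobacillus ingluviei CR37, and CON calves (n = 7) did not. Both groups were reared on milk replacer fed at 1.75% of body weight, had starter from day 33, had the milk replacer cut to 50% on day 82, were weaned by day 89 and were slaughtered on day 90. Each library is 1 calf, so the error given below is the spread between calves.

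Long-chain fatty acids cannot cross the inner mitochondrial membrane as such. A synthetase (ACSL1, ACSL5) joins them to coenzyme A, CPT1A on the outer membrane passes the acyl group to carnitine, the translocase SLC25A20 exchanges acylcarnitine for free carnitine across the inner membrane, and CPT2 on its inner face returns the acyl group to coenzyme A for beta-oxidation. CPT1A is inhibited by malonyl-CoA and is the main point of control in liver. CRAT handles acetyl and other short-chain groups, CROT handles medium-chain groups that leave the peroxisome, and SLC22A5, also called OCTN2, takes carnitine up from blood. Several of these genes are known targets of the fatty acid receptor PPARA, which is active in liver during fasting.

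Values are TPM, which allow for transcript length and for the total of the library, so levels may be compared between genes, but the sequencing depth is unknown and no counting interval can be given. Some libraries stood apart. CON calf 7 had the highest level of its group in 8 of the 8 genes, DCLI calf 4 the lowest of its group in 6, and CON calf 5 the lowest of its group in 6. Differences are given below also without CON calf 7, which raised each of them. Without CON calf 5 the log2 fold changes (DCLI minus CON) were 0.42 for CPT1A, 0.37 for CPT2, 0.54 for CRAT and 0.54 for ACSL1. They were 0.40 for SLC25A20, 0.44 for ACSL5, 0.50 for SLC22A5 and 0.02 for CROT. Apart from SLC22A5, each was lower than with all 14 calves. Liver cell markers were plentiful in every library, with a summed level of 38376 to 116487 TPM in DCLI calves and 56996 to 105812 TPM in CON calves over 7 markers. The median sum was 100317 TPM in DCLI and 82485.5 TPM in CON, and 5 of the 7 markers had a higher mean log2 level in DCLI. DCLI calf 6 had the lowest sum. Markers of T and NK cells summed to 22.8 to 88.4 TPM in DCLI and 30.2 to 301 TPM in CON, and those of macrophages to 1431 to 4356 TPM in DCLI and 1638 to 6969 TPM in CON. CON calf 2 was highest in both lists, and 7 of 7 T and NK cell markers and 7 of 8 macrophage markers had a lower mean log2 level in DCLI. The same held for 4 of 4 B cell, 4 of 4 neutrophil and 5 of 6 stellate cell and fibroblast markers, with 0 markers past the adjusted threshold by limma. It held for 3 of 4 cholangiocyte markers tested, while endothelial markers were mixed, with 3 lower and 2 higher. Of the 2 erythrocyte markers tested, 1 was higher and 1 lower. Erythrocyte markers summed to 71.8 to 572 TPM in DCLI, highest in calf 1, and to 40.0 to 115 TPM in CON. Neutrophil markers summed to 24.4 to 253 TPM in DCLI, highest in calf 6, and to 38.7 to 200.4 TPM in CON. The 3 skeletal muscle markers matched never summed above 0.43 TPM. In pieces of liver, fewer cells of a type and less RNA per cell cannot be told apart, and the part of other cell types in the results was not tested. Without CON calf 2 the median log2 fold change of the 8 genes was 0.45, against 0.49 with it.

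By limma on log2(TPM + 1) with Benjamini-Hochberg adjustment over the 11905 genes tested, 0 of the 8 carnitine genes passed an adjusted p of 0.05, where 0% of all genes did. All 8 had a log2 fold change (DCLI minus CON) above 0, as did 48.8% of all genes. Their median was 0.49, against -0.01 over all genes. At an unadjusted p under 0.05 there were 4 of the 8 (CPT1A, CRAT, SLC22A5 and SLC25A20), each higher in DCLI, where 8.89% of all genes reached that level in either direction and 5.7% with the higher level in DCLI. The genes were chosen with earlier results of these data known, so the counts describe them and test nothing. In 2 of the 8, CPT1A and CRAT, every DCLI calf lay above the CON median, which held for 6.8% of all genes. With the alternatives tried, 0 of the 8 passed the adjusted threshold with the calf number as a block (0.0084% of all genes) or without CON calf 7 (0.101%), and 6 passed with sample weights (11.7%), a fit that gave DCLI calf 7 a weight of 5.93 and CON calf 2 a weight of 0.336. The groups overlapped in all 8, and they failed to overlap in 0.0672% of all genes.

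**Figure D1:**
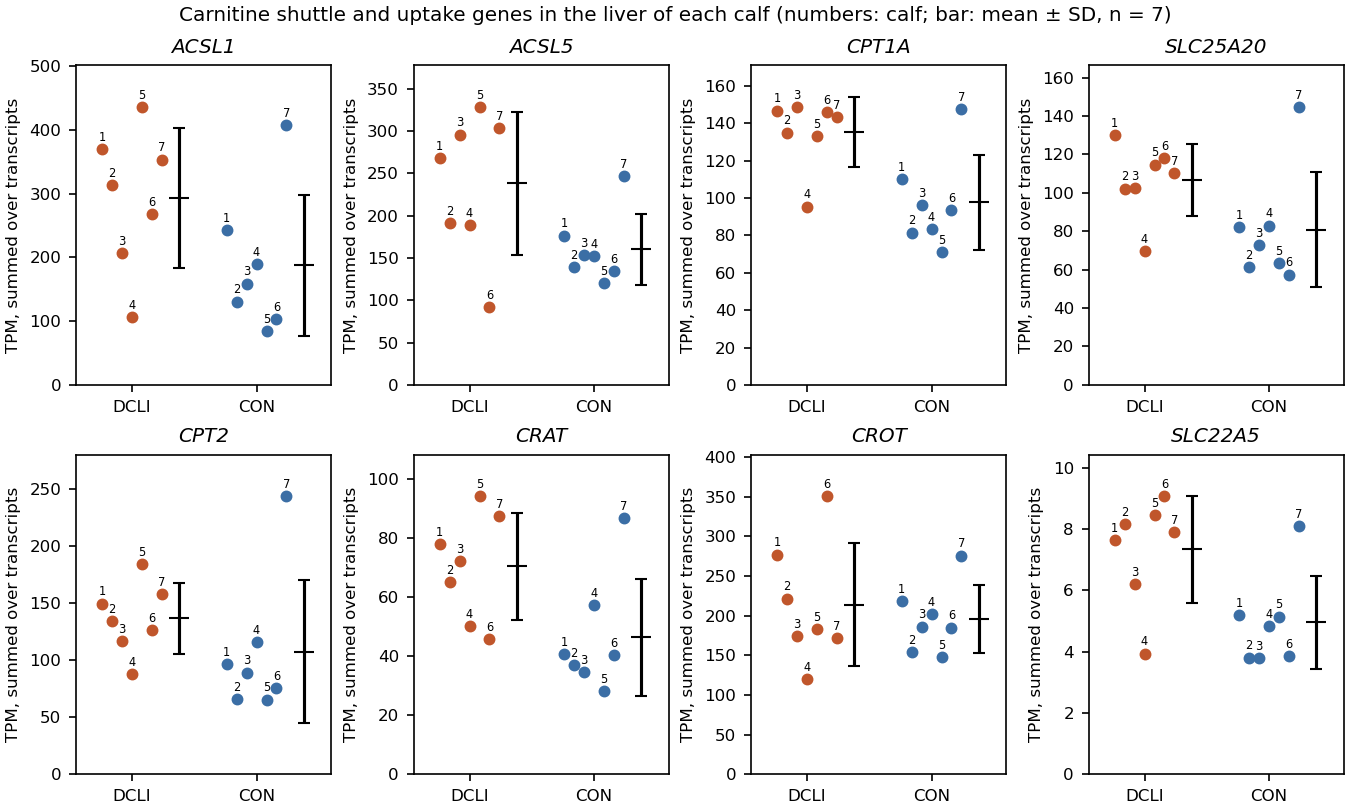
TPM of each gene (vertical axis, summed over transcripts, starting at 0) in the 7 DCLI calves (orange) and the 7 CON calves (blue), with the calf number beside each point and the mean ± SD as a bar. CON calf 7 lies above the other CON calves in all 8 panels, and in CROT the groups cover much the same range, with a median of 182 TPM in DCLI and 186 TPM in CON.

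The synthetases that prepare fatty acids for the shuttle had the highest and the third highest mean level. ACSL1, the main long-chain synthetase of liver, had 107 TPM in the lowest, 314 in the median and 436 in the highest DCLI calf, and 84.0, 159 and 407 TPM in CON calves. DCLI calf 4 lay among the low CON calves, and CON calf 7 among the high DCLI calves. The log2 difference in ACSL1 was 0.71 ± 0.34 (SE, n = 7 each, 95% interval -0.03 to 1.44) with an adjusted p of 0.575 by limma, and 0.92 without CON calf 7 (adjusted p 0.203). ACSL5, a synthetase found at the mitochondrial outer membrane and the endoplasmic reticulum, had 92.0, 268 and 329 TPM in DCLI calves and 120.5, 152 and 247 TPM in CON calves. Its lowest and its highest value of all 14 calves were both in DCLI, in calves 6 and 5. ACSL5 had a log2 fold change of 0.50 ± 0.25 (SE, adjusted p 0.576 by limma), 0.61 without CON calf 7 (adjusted p 0.290) and 0.71 without DCLI calf 6.

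Of the shuttle itself, 3 mRNAs were measured, none past the adjusted threshold. CPT1A had 95.3 TPM in the lowest, 143 in the median and 149 in the highest DCLI calf, and 71.2, 93.6 and 148 TPM in CON calves. Of the DCLI calves, 6 lay between 133 and 149 TPM, and calf 4 stood below them. For CPT1A the log2 fold change was 0.49 ± 0.15 (SE, n = 7 each, 95% interval 0.18 to 0.81), which had the lowest unadjusted p of the 8 genes, 0.00451, and an adjusted p of 0.409 by limma. Without CON calf 7 it was 0.60 (adjusted p 0.0680). SLC25A20, the carnitine-acylcarnitine translocase, had 69.6, 110.3 and 129.9 TPM in DCLI calves and 57.3, 72.9 and 145 TPM in CON calves, with 6 of 7 DCLI calves above the CON median. Its log2 fold change was 0.44 ± 0.19 (SE, adjusted p 0.507 by limma), and 0.59 without CON calf 7 (adjusted p 0.0880).

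CPT2 had 87.7, 134 and 184 TPM in DCLI calves and 65.3, 88.8 and 243 TPM in CON calves. The highest of all 14 calves was CON calf 7, and the next CON calf had 115 TPM. The log2 fold change of CPT2 was 0.46 ± 0.25 (SE, n = 7 each, adjusted p 0.606 by limma), and 0.68 without CON calf 7 (adjusted p 0.104). The SD between calves was 22.8% of the mean in DCLI and 58.5% in CON, and for CPT1A it was 13.8% in DCLI and 25.9% in CON. The ratio of CPT1A to CPT2 within a calf had a median of 1.01 in DCLI (range 0.722 to 1.28) and 1.09 in CON (0.606 to 1.24), with a difference of mean log2 ratios of 0.030 (exact permutation p 0.883, two-sided). The ratio of CPT1A to SLC25A20 had a median of 1.299 in DCLI and 1.318 in CON (difference 0.047, exact permutation p 0.661). Leaving out single calves turned the sign of both differences. Adjusted over the 4 ratios compared, these p-values were 0.883 and 0.882.

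**Figure D2:**
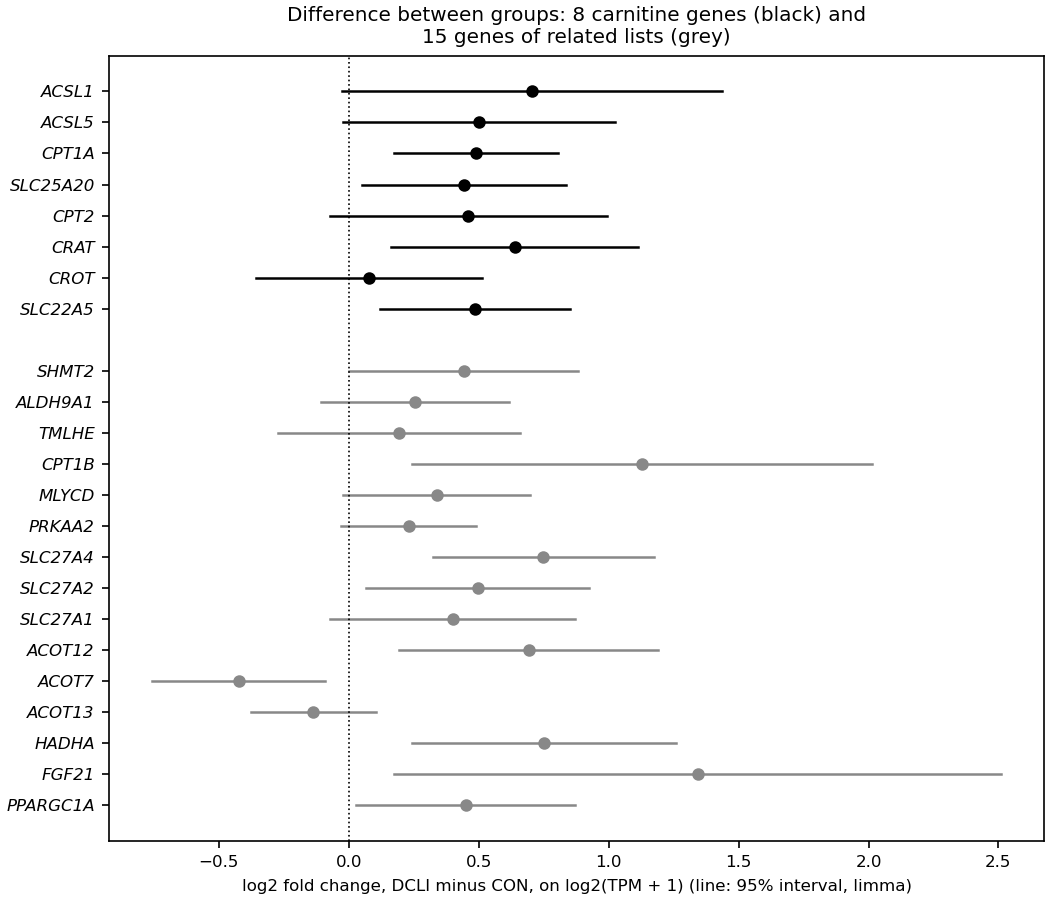
Log2 fold change, DCLI minus CON (horizontal axis, on log2(TPM + 1)), with 95% intervals from limma, for the 8 carnitine genes (black) and the 3 genes of lowest unadjusted p in each of 5 related lists (grey). The intervals of CPT1A, SLC25A20, CRAT and SLC22A5 lie above 0, that of CROT runs from -0.36 to 0.51, and no gene shown passed the adjusted threshold.

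The other carnitine acyltransferases act on shorter acyl groups. CRAT, of mitochondria and peroxisomes, had 45.75 TPM in the lowest, 72.2 in the median and 94.1 in the highest DCLI calf, and 28.2, 40.3 and 86.6 TPM in CON calves. The lowest DCLI calf, calf 6, lay above 5 of 7 CON calves. CRAT differed by 0.64 ± 0.22 on the log2 scale (SE, n = 7 each, 95% interval 0.16 to 1.11, adjusted p 0.440 by limma), and 0.80 without CON calf 7 (adjusted p 0.0827). CROT, of peroxisomes, had 119, 182 and 350.5 TPM in DCLI calves and 148, 186 and 276 TPM in CON calves. Only 3 of 7 DCLI calves lay above the CON median. The difference in CROT was 0.08 ± 0.21 (SE, 95% interval -0.36 to 0.51, adjusted p 0.931 by limma), 0.17 without CON calf 7 (adjusted p 0.759) and -0.053 without DCLI calf 6.

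Within a calf, the ratio of CRAT to CROT had a median of 0.416 in DCLI (range 0.131 to 0.516) and 0.218 in CON (0.186 to 0.314). In 4 DCLI calves it exceeded every CON calf, while DCLI calf 6, with the lowest ratio of all, had the most CROT and the least CRAT of its group. The difference of mean log2 ratios was 0.57 (exact permutation p 0.0734, adjusted p 0.294 over the 4 ratios). Without DCLI calf 6 it was 0.80 (exact permutation p 0.00466, adjusted p 0.0186), so that 1 calf decides this call. The ratio of ACSL1 to ACSL5 had a median of 1.33 in DCLI and 1.04 in CON, and DCLI calf 6 again stood out, at 2.91. Its difference was 0.21 (exact permutation p 0.567, adjusted p 0.882), and -0.0014 without DCLI calf 6.

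SLC22A5, the sodium-dependent carnitine carrier of the cell membrane, was by far the least abundant of the 8. It had 3.94, 7.90 and 9.08 TPM in the lowest, median and highest DCLI calf, and 3.78, 4.84 and 8.11 TPM in CON calves. Of the DCLI calves, 5 lay above 7 TPM, as did 1 CON calf, calf 7. SLC22A5 differed by 0.49 ± 0.17 on the log2 scale (SE, n = 7 each, 95% interval 0.12 to 0.85, adjusted p 0.443 by limma), and 0.59 without CON calf 7 (adjusted p 0.112). With a pseudocount of 5 in place of 1 the log2 fold change of this low gene was 0.31.

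Over all 14 calves, mean TPM descended from ACSL1 (241 ± 119, SD) through CROT (205 ± 61.0), ACSL5 (199 ± 75.7), CPT2 (122 ± 49.9), CPT1A (116 ± 29.0), SLC25A20 (93.7 ± 27.6) and CRAT (58.4 ± 22.1) to SLC22A5 (6.15 ± 2.00). The lower end of this order was fixed: CPT1A exceeded SLC25A20, SLC25A20 exceeded CRAT and CRAT exceeded SLC22A5 in 14 of 14 calves. Its upper end was not. ACSL1 exceeded CROT in 5 of 7 DCLI calves and 2 of 7 CON calves, CROT exceeded ACSL5 in 3 of 7 DCLI calves and 7 of 7 CON calves, and CPT2 exceeded CPT1A in 3 of 7 DCLI calves and 2 of 7 CON calves. The order within these 3 pairs of neighbours thus varied between calves, for CROT and ACSL5 among DCLI calves only. ACSL5 exceeded CPT2 in 13 of 14 calves (6 of 7 DCLI calves and 7 of 7 CON calves).

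Within 3 genes, single transcripts pointed in other directions than the sum. RSEM shares reads among transcripts of a gene that have most of their sequence in common, so a split between them is an estimate. Of the 29 transcript rows, 21 reached the filter of at least 1 TPM in at least 7 libraries; 17 of these had a log2 fold change above 0 and 4 below it, while 50.5% of all 19045 transcripts tested lay above 0. By limma over all those transcripts, 0 of the 21 passed an adjusted p of 0.05, as did 0% of all. Unadjusted, 10 of the 21 had a p under 0.05, 9 higher and 1 lower in DCLI, beside 11.1% of all transcripts in either direction, 7.04% higher and 4.06% lower.

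CROT, whose sum differed little, held a pair of transcripts that pointed in opposite directions. NM_177494 had 76.0, 125 and 265 TPM in the lowest, median and highest DCLI calf, and 60.0, 84.6 and 212 TPM in CON calves (log2 fold change 0.52 ± 0.31, SE). XM_024990440 had 11.7, 45.4 and 111 TPM in DCLI calves and 63.2, 87.8 and 114 TPM in CON calves (-0.79 ± 0.37, SE, adjusted p 0.455 by limma). Of the CROT total, XM_024990440 made up 4.24% to 50.1% in DCLI calves (median 30.75%) and 22.9% to 61.5% in CON calves (median 54.2%). In CON, calf 7 had the lowest share.

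Of the 21 transcripts tested, XM_024985598 of ACSL5 had the log2 fold change farthest from 0. It was listed at 0 in DCLI calves 1, 3, 4 and 5 and had 55.3, 14.8 and 6.44 TPM in DCLI calves 2, 6 and 7, while CON calves 1 to 7 had 52.1, 41.0, 55.5, 21.0, 51.7, 21.1 and 1.64 TPM. DCLI calf 2 thus lay with the high CON calves, and CON calf 7 with the low DCLI calves. Its log2 fold change was -2.90 ± 0.97 (SE, adjusted p 0.291 by limma), on a scale where values of 0 depend on the pseudocount. NM_001075650, the most abundant ACSL5 transcript in 6 of 7 DCLI calves but below XM_010820034 in 7 of 7 CON calves, had 29.8, 137 and 183 TPM in the lowest, median and highest DCLI calf, and 28.4, 41.7 and 102 TPM in CON calves. This is a log2 fold change of 1.24 ± 0.38 (SE, adjusted p 0.270 by limma), larger than the 0.50 of the gene's sum.

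In CPT2, XM_024985639 made up 0% to 10.8% of the total in DCLI calves (median 1.48%) and 0.760% to 52.1% in CON calves (median 8.90%). CON calves 2, 3 and 5 were high, at 28.8%, 43.8% and 52.1%. NM_001045889, the CPT2 transcript with the highest mean, had a log2 fold change of 0.79 ± 0.35 (SE, adjusted p 0.419 by limma). The shares of these 3 transcripts, singled out after their values were seen, are described without a test. Over the 14 calves Pearson's r was 0.82 between the CROT and ACSL5 shares, 0.70 between CROT and CPT2 and 0.85 between ACSL5 and CPT2, and Spearman's rho was 0.79, 0.84 and 0.82. After centring within each group r was 0.73, 0.59 and 0.79, and without the 2 calves farthest from the median it was 0.82, 0.68 and 0.76. CPT1A, ACSL1, SLC25A20 and SLC22A5 were each carried almost wholly by 1 transcript, with mean shares of 97.9%, 96.1%, 98.9% and 100% in DCLI and 98.8%, 98.3%, 98.9% and 100% in CON. The minor ACSL1 transcript XM_005225993 had 2.86, 8.07 and 23.9 TPM in the lowest, median and highest DCLI calf, and 0.29, 1.26 and 8.87 TPM in CON calves. Its log2 fold change was 1.77 ± 0.52 (SE), and its adjusted p, 0.259 by limma, was the lowest among the 21 transcripts tested.

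**Figure D3:**
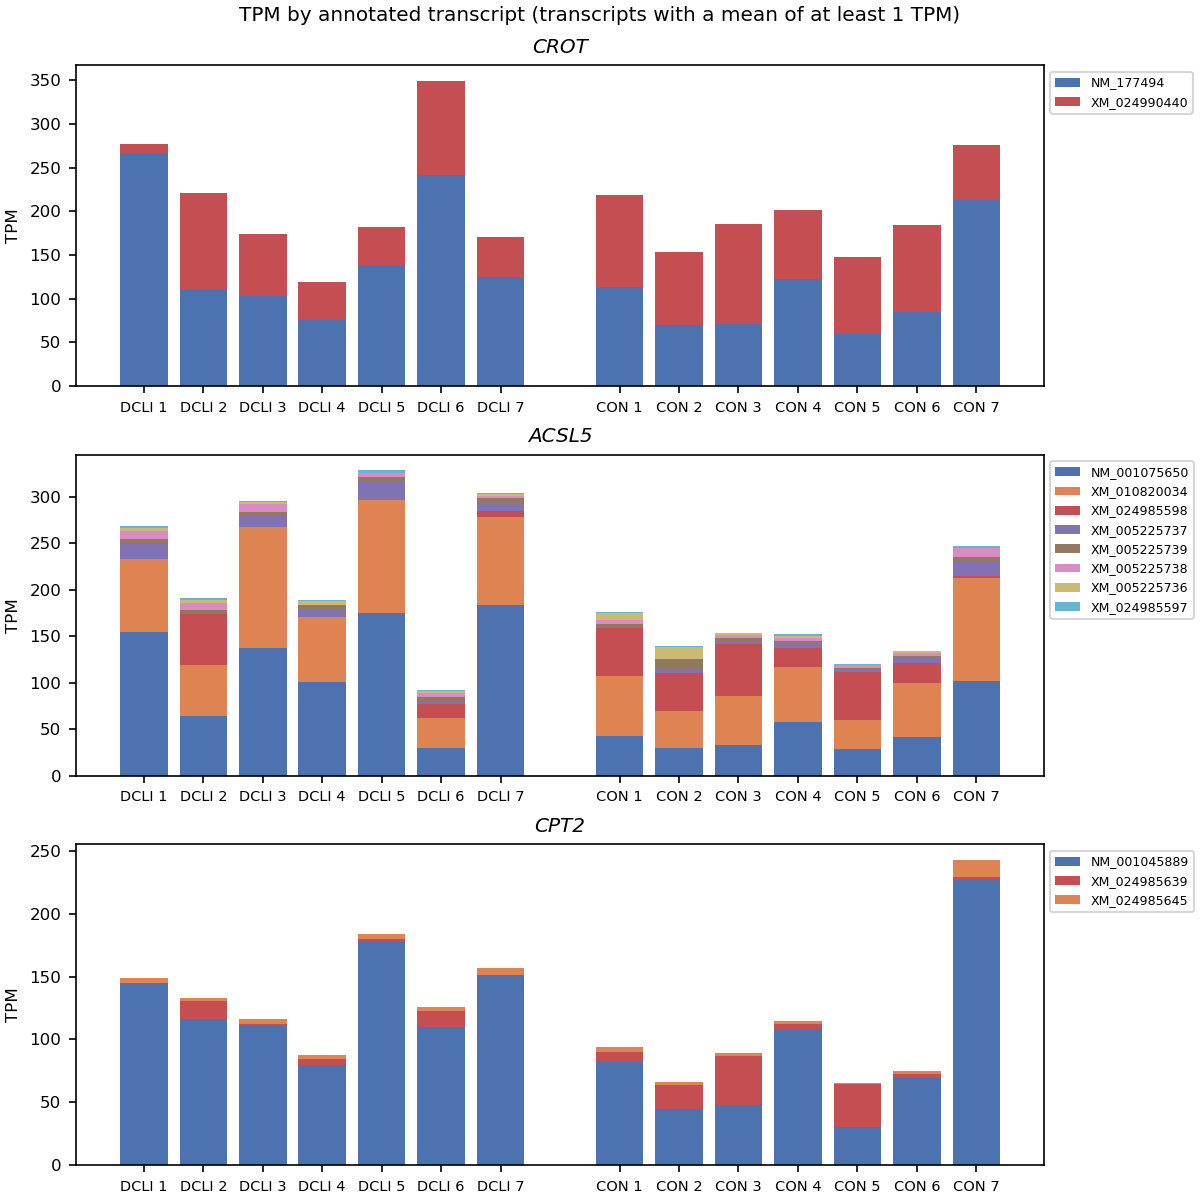
TPM (vertical axis) of each transcript with a mean of at least 1 TPM, stacked per calf, for CROT, ACSL5 and CPT2; DCLI calves are on the left and CON calves on the right. The red segments are XM_024990440 in CROT (11.7 to 111 TPM in DCLI calves and 63.2 to 114 TPM in CON calves), XM_024985598 in ACSL5, listed at 0 in 4 DCLI calves, and XM_024985639 in CPT2, which is tallest in CON calves 3 and 5.

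The 8 genes varied together between calves. Of their 28 pairs, 27 had a positive Pearson's r over the 14 calves (median 0.80, range -0.10 to 0.94), and 25 had an adjusted permutation p under 0.05 (21 by Spearman's rho, adjusted over the 28 pairs). Over all pairs of the genes tested, the median r was 0.205, 70.1% were above 0 and 15.6% reached 0.55, the lowest r among those 25. Pairs share calves and genes, and shifts of whole libraries move many genes at once, so these shares are a description. The strongest was SLC25A20 with CPT2 (r = 0.94, rho = 0.93, adjusted permutation p 9.33e-05 for r and for rho), and it was 0.92 without the 2 calves farthest from the median. Centred within each group, the median r was 0.74, against 0.226 over all gene pairs. Without CON calf 7 the median was 0.78. Inside CON, r lay between 0.68 and 0.98 (median 0.89, n = 7), but without CON calf 7 the lowest was -0.09 (CPT1A with SLC22A5) and the median 0.70 among the other 6 calves. Inside DCLI it lay between -0.52 and 0.97 (median 0.69, n = 7).

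The exception was CROT with ACSL5 (r = -0.10, rho = -0.03, adjusted permutation p 0.734 for r and 0.916 for rho). The value was -0.52 in DCLI, 0.94 in CON, and 0.34 over the 12 calves left without DCLI calves 4 and 6. Whether the groups differ in it was not tested. DCLI calf 6 held the most CROT (350.5 TPM) and the least ACSL5 (92.0 TPM) of all 14 calves. That calf also had the most HP mRNA, at 29341 TPM, and the lowest summed level of liver cell markers.

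**Figure D4:**
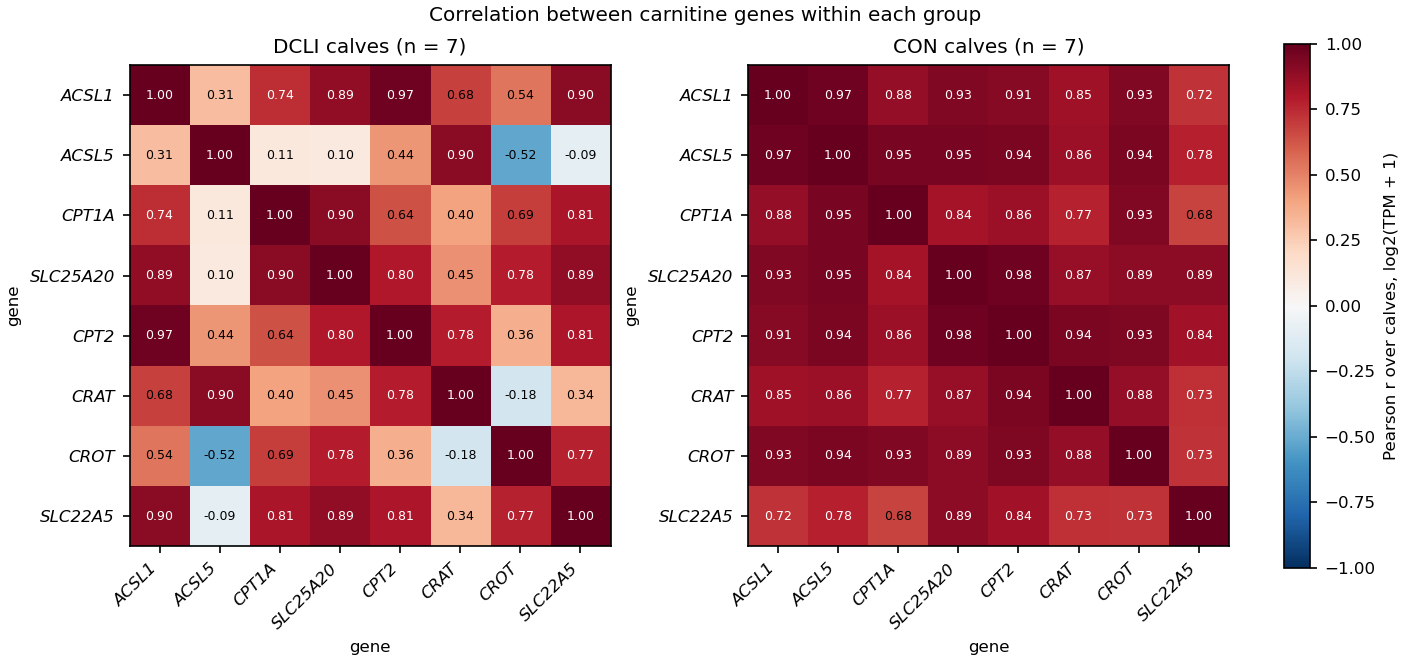
Pearson's r between the 8 genes over the calves of each group, on log2(TPM + 1), DCLI on the left and CON on the right (n = 7 each). The CON values lie between 0.68 and 0.98, a floor that drops to -0.09 without CON calf 7, and in DCLI the row of ACSL5 holds values from -0.52 with CROT to 0.90 with CRAT.

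**Figure D5:**
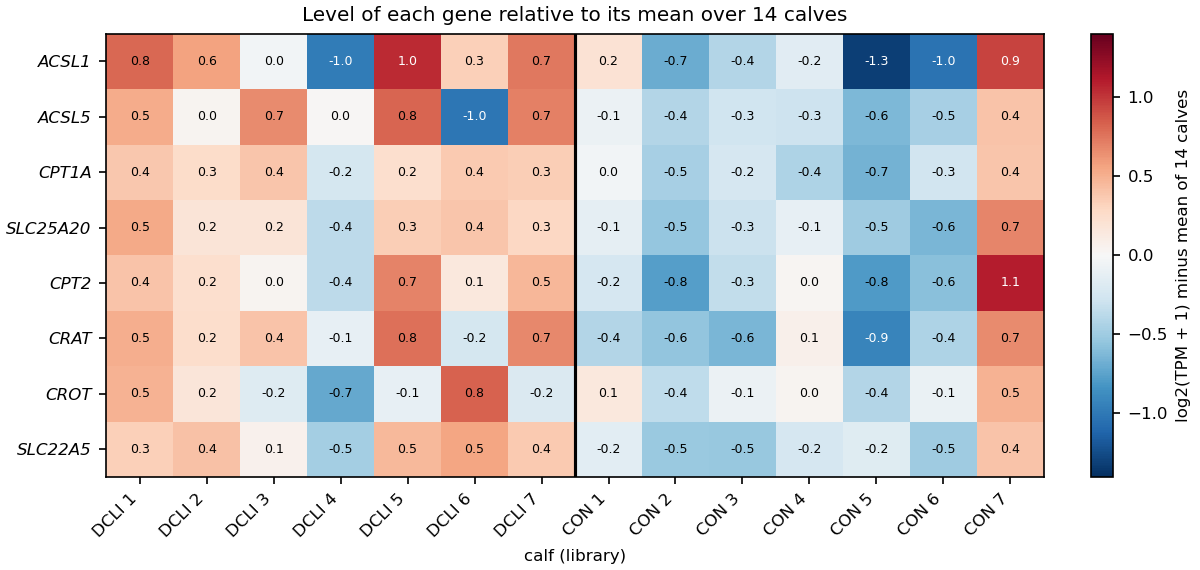
Log2(TPM + 1) of each gene in each calf minus the gene's mean over the 14 calves (colour and printed value), DCLI calves left of the black line and CON calves right of it. Averaged over the 8 genes, CON calf 7 stands highest (0.63), CON calf 5 lowest (-0.67), and DCLI calf 4 is the only DCLI calf below 0 (-0.41).

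PPARA, the receptor, had 31.4, 40.7 and 51.4 TPM in the lowest, median and highest DCLI calf and 25.7, 33.7 and 46.2 TPM in CON calves (log2 fold change 0.24 ± 0.14, SE, adjusted p 0.623 by limma). Its level went with 7 of the 8 genes at an adjusted permutation p under 0.05, over the 16 pairs of a carnitine gene with PPARA or HP. Of all other genes tested, 7.54% had an r with PPARA of at least 0.64, the lowest among those 7, and the median was 0.099. The strongest was ACSL1 (r = 0.86, rho = 0.84, adjusted permutation p 0.00192 for r and 0.00496 for rho, 0.83 without the 2 farthest calves). CROT was the exception (r = 0.46, rho = 0.40, adjusted permutation p 0.136 for r and 0.212 for rho). Other pairs with PPARA moved more than ACSL1 without the 2 farthest calves, CON calves 2 and 5. The median r of the 8 pairs was then 0.66, against 0.75 with all 14 calves. For CPT1A it was 0.57 against 0.75, and for CROT 0.27. HP encodes haptoglobin, the leading acute phase protein of cattle, and ranged from 138 to 29341 TPM in DCLI calves and from 46.6 to 21480 TPM in CON calves. Its r with the 8 genes lay between -0.62 and -0.07, and ACSL5 was the only pair past the threshold (r = -0.62, rho = -0.67, adjusted permutation p 0.0376 for r and 0.0247 for rho, -0.71 without the 2 farthest calves). With median-ratio scaling the HP correlations were weaker, with a median of -0.20 against -0.45 and an r of -0.44 for ACSL5.

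For each gene, the 3 genes of most similar pattern over the 14 calves were sought among 11897 others, after centring within each group. SLC25A20 was most like TLCD4 (r = 0.95) and HADHA, a subunit of the beta-oxidation enzyme complex (r = 0.93). ACSL1 was most like IDH1, the cytosolic isocitrate dehydrogenase (r = 0.98), and MPC1, a subunit of the mitochondrial pyruvate carrier (r = 0.98), and CPT2 like LOC338050 (r = 0.95) and TGOLN2 (r = 0.95). CRAT was most like PAQR3 (r = 0.96), SLC22A5 like GPAT3, a glycerol-3-phosphate acyltransferase (r = 0.93), and CPT1A like SLC25A47, a mitochondrial carrier made mainly in liver (r = 0.87). CROT was most like PRKAG2, a subunit of AMP-activated kinase (r = 0.90), and CPT1B (r = 0.88). The 3 for ACSL5 were CES2, a carboxylesterase (r = 0.96), SLCO2B1 (r = 0.95) and ALB, one of the liver cell markers (r = 0.94). The highest of many values is high by selection, so these are descriptions.

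Among related genes, 0 passed the adjusted threshold by limma in any of 5 lists, beside 0% of all genes. In carnitine synthesis and other carnitine carriers 7 of 8 tested genes had a log2 fold change above 0, with a median of 0.06. BBOX1, which makes carnitine from butyrobetaine, had 98.2 TPM in DCLI and 93.6 TPM in CON, or 0.03 ± 0.16 on the log2 scale (SE, n = 7 each). The values were 0.19 ± 0.22 for TMLHE, which starts the pathway from trimethyllysine, 0.25 ± 0.17 for ALDH9A1, its aldehyde dehydrogenase, and 0.44 ± 0.21 for SHMT2, the mitochondrial serine hydroxymethyltransferase.

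Around CPT1A, 3 of 5 tested genes lay above 0 (median 0.23). CPT1B, the muscle isoform, had 15.8 TPM in DCLI (SD 9.68) and 6.59 TPM in CON (SD 4.84). The difference in CPT1B was 1.13 ± 0.42 on the log2 scale (SE, n = 7 each, adjusted p 0.457 by limma). The muscle markers were near 0 in every library, and the cell type that holds the CPT1B mRNA was not tested. MLYCD, which breaks down malonyl-CoA, had 39.9 TPM in DCLI and 31.9 TPM in CON (0.34 ± 0.17, SE), and PRKAA2, a catalytic subunit of AMP-activated kinase, 5.26 TPM in DCLI and 4.31 TPM in CON (0.23 ± 0.12, SE). ACACA, the acetyl-CoA carboxylase that makes malonyl-CoA for fat synthesis, had a log2 fold change of -0.0058 ± 0.13 (SE).

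In fatty acid uptake, binding and other synthetases 4 of 13 tested genes lay above 0 (median -0.11), with ACSL3 at -0.11 ± 0.16 and ACSL4 at -0.23 ± 0.21 (SE). The fatty acid transport proteins SLC27A4 (33.8 TPM in DCLI and 20.3 TPM in CON), SLC27A2 (280.4 TPM in DCLI and 213.5 TPM in CON) and SLC27A1 had log2 fold changes of 0.75 ± 0.20, 0.50 ± 0.20 and 0.40 ± 0.22 (SE). SLC27A5, of the same family, did not differ in this way, with 212.4 TPM in DCLI and 212.3 TPM in CON (-0.0047 ± 0.12, SE). SLC27A4 had the lowest adjusted p of the list, 0.365 by limma. Of acyl-CoA thioesterases, which cut acyl-CoA back to free acid, 3 of 8 lay above 0 (median -0.07), with ACOT12 at 0.69 ± 0.24, ACOT7 at -0.42 ± 0.16 and ACOT13 at -0.14 ± 0.11 (SE). In the list of PPARA, its partner proteins and shared targets, 10 of 10 tested genes lay above 0 (median 0.58), beside 48.8% of all genes. Unadjusted, 4 of the 10 had a p under 0.05 by limma, each higher in DCLI, where 5.7% of all genes did so. Among the 10 were HADHA at 0.75 ± 0.24 and PPARGC1A, a coactivator of PPARA, at 0.45 ± 0.20 (SE). FGF21, a fasting hormone of liver, stood at 1.34 ± 0.55 (SE, adjusted p 0.496 by limma). The lists, too, were drawn up with earlier results of these data known.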

How the data were processed

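The values are transcript-level TPM that the authors deposited in 1 table for 14 liver libraries, written to 2 decimals. The submitters' processing notes name RSEM 1.3.1 and DESeq2 1.4.5. Reads were filtered with SOAPnuke 1.5.6, per the labels' protocols. For aligner and genome build, the notes and labels are silent: not given in the sources used here. Columns summed to 999997.1 to 1000000.3, so depth is unknown, and a transcript taking a large share lowers all other TPM values of its library. TPM was summed per gene ID. Libraries titled as treated are the DCLI group, the only treated group the design names. Tests covered the 11905 genes that reached 1 TPM in 7 or more libraries, as log2(TPM + 1), a scale that understates changes of low genes, with limma 3.58.1 in R 4.3.3 (mean-variance trend, no covariate, Benjamini-Hochberg over all genes, threshold 0.05). The same was done for 19045 transcripts. The fit was also run on simulated data with known changes. Their noise was drawn for each gene alone, so they hold no shifts shared by many genes. Within-calf ratios used exact permutation, and correlations used 100000 resamples, all two-sided. The 8 genes and the lists were chosen with earlier results of these data known. Named genes are the 8, their transcripts with a mean of at least 1 TPM, HP and PPARA. Up to 3 genes of lowest p in each related list and the 3 most similar genes are named too. BBOX1, ACACA, ACSL3, ACSL4 and SLC27A5 were added after their values were seen. ACOT1, CKM and CSF3R were not analysed here. No sequence was used. Matplotlib 3.10.9 drew the figures.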

Additional observations from a re-analysis of the deposited data

Results flagged for a closer look

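Among 70 sets of 7 calves examined (each gene, transcript or ratio in each group), 19 held a calf far from the other 6 of its group. Chance alone marks about 1 set in 20 where values follow a normal distribution. The flagged values were compared as TPM, not on the log2 scale of the tests, and their distribution was not tested. The count of 19 therefore cannot be set against that rate. The sets are also not independent, since genes share calves and a gene's sum holds its transcripts. CON calf 7 stood far above its group in CPT2 (243.45 TPM, the next calf 115 TPM), SLC25A20 (144.71 TPM) and SLC22A5 (8.11 TPM). The same held for transcripts NM_001045889 (227.02 TPM) and XM_024985645 (14.18 TPM) of CPT2, NM_001077936 of SLC25A20 (143.97 TPM), NM_001046502 of SLC22A5 (8.11 TPM), NM_001075587 of CRAT (80.59 TPM), NM_177494 of CROT (212.35 TPM) and XM_005227376 of CPT1A (3.52 TPM). It held too for NM_001075650 (101.71 TPM), XM_005225737 (14.97 TPM) and XM_010820034 (111.22 TPM) of ACSL5. DCLI calf 4 stood far below its group in CPT1A (95.26 TPM, the next calf 133 TPM) and in NM_001304989 of CPT1A (91.68 TPM). DCLI calf 2 stood above its group in XM_024985598 of ACSL5 (55.34 TPM) and below it in XM_005225739 of ACSL5 (2.94 TPM), which was high in CON calf 2 (12.78 TPM). CON calf 4 was high in XM_024998524 of CRAT (10.98 TPM).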

How the results depend on the processing

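In place of 0 genes past an adjusted p of 0.05 by limma (1058 at an unadjusted p under 0.05), 1 gene passed with the replicate block (0.0084% of those tested), 12 (0.101%) without CON calf 7 and 1388 (11.7%) with sample weights; with a calf left out the count ran from 0 to 12. Of the 8 carnitine genes, 0 passed with any calf left out or with the block, and 6 passed with sample weights, which gave calves weights from 0.336 to 5.93. CROT stood at -0.073 with sample weights and at -0.053 without DCLI calf 6, and at up to 0.205 with another calf left out; without DCLI calf 6 7 of 8 genes were higher, and 8 with any other calf left out. With 1 calf left out the median log2 fold change ran from 0.43 (without CON calf 5) to 0.60 (without CON calf 7), and over the other settings from 0.45 to 0.60. Transcripts alone gave -1.52 (XM_024985639 of CPT2), -0.79 (XM_024990440 of CROT), and -2.90 and -0.11 (XM_024985598 and XM_005225736 of ACSL5). With 1 calf left out the log2 ratio differences ran from -0.087 to 0.11 for CPT1A to CPT2, from -0.0022 to 0.11 for CPT1A to SLC25A20, from -0.0014 to 0.39 for ACSL1 to ACSL5 and from 0.47 to 0.80 for CRAT to CROT, the last past the threshold without DCLI calf 6 alone. The median r with HP was -0.20 with median-ratio scaling. That of the 28 pairs was 0.78 without CON calf 7, a setting chosen after seeing the data. The cause of these shifts was not tested. Nothing in the labels says that the calf numbers pair calves across the 2 groups. Deviations of same-numbered calves had correlations from -0.18 to 0.45, over 0.1 in 4 of 7 pairs. For 3 of 7 DCLI calves the best match was the CON calf of their own number. These values do not settle whether the numbers pair calves. The block changed no carnitine gene's call. Depth is unknown, so what it limits cannot be stated.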
